A study of Mus musculus with 24 samples.

Results

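The comparison described here is of osteocyte-like cells with their connexin 43 hemichannels blocked, kept either at the 2g position of a magnet platform or in an ordinary incubator. It comprises 6 of the 24 arrays of the series, chosen by their titles: the 3 arrays of antibody-treated cells at 2g and the 3 of antibody-treated cells in the incubator (C), paired by the number from 1 to 3 in the title. All cells were MLO-Y4, a line with osteocyte features that was derived from the long bones of a mouse carrying a T-antigen transgene, so every group is 1 immortalized line. All received antibody at a 1:50 dilution for 30 min at 37 °C and 5% CO2 in 35 mm dishes. In the E2 arm this was Cx43(E2), which blocks connexin 43 hemichannels, at 28 µg/ml. In the IgG arm it was an irrelevant rabbit IgG. Dishes of each arm then went to the 1g, 2g or μg (ug here) position of a high magneto-gravitational platform, or to the incubator, and each of these 8 groups has 3 arrays. The time spent on the platform is not given in the sources used here. Neither group of the comparison is untreated: both carry the blocking antibody, and the 2g cells also lay in the magnet while the incubator cells did not, so magnetic field and effective gravity cannot be told apart.

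Osteocytes sit in the bone matrix and sense mechanical load. Connexin 43, the product of Gja1, forms gap junctions between them and also unpaired hemichannels, which open under load and release ATP and prostaglandin E2. The antibody binds an extracellular loop of the protein and closes hemichannels. In a magnet with a steep field gradient a diamagnetic force acts on the water and protein of cells, adding to gravity at one position and opposing it at another, and the 2g position stands for increased gravity.

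Values are log2 probe set intensities. The title number marks a set of 4 arrays, 1 per environment. Within sets, 2g and C arrays of the E2 arm correlated in their deviations from group means (r = 0.605, 0.574 and 0.754 in sets 1, 2 and 3, across genes, which are not independent replicates). Set E2 3 stood apart from E2 1 and E2 2: r between number 3 and the other numbers was -0.675 to -0.234, and the first principal component of the 24 arrays (44.6% of the variance) placed the 4 arrays of E2 3 below 0 and the other 8 of the arm above it. Comparisons were therefore made within sets. Of the defining osteocyte markers, Sost (7.18 in C, 7.12 at 2g) and Fgf23 (7.18 and 7.03) reached the filter for low values, while Dmp1, Mepe and Phex lay below it, between 4.57 and 4.71. Pdpn, an early osteocyte marker, and Capg were bright (12.60 and 12.46 in C). Markers of other cell types were partly above the filter: 7 of 10 for osteoclasts and macrophages (Ctsk at 10.71, Cd14 at 9.03 and Cd68 at 8.38 in C, with Ptprc at 5.24 and Adgre1 at 4.67 below it), 5 of 8 for adipocytes (Fabp4 at 9.90 and Cebpa at 8.72, with Adipoq at 4.33 below it) and 7 of 9 for endothelial cells (Vwf at 7.46 and Flt1 at 6.72, with Emcn at 4.43 below it). So were 6 of 8 for muscle, 5 of 9 for chondrocytes (Sox9 at 9.94 in C) and 2 of the 5 osteoblast markers on the array (Alpl at 10.37 in C). The filter kept 15786 of the 21789 probe sets with 1 gene symbol, so passing it says little about a cell type. The part of other cell types in the results was not tested. RNA came from whole dishes, so fewer cells of a type and less RNA per cell cannot be told apart. No label says that the 3 arrays of a group came from separate cultures, so p-values measure only the spread between these arrays, and the number of arrays limits the precision.

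With hemichannels blocked, no gene passed the test between 2g and the incubator. Of 14489 genes tested, limma called 0 higher (0%) and 0 lower (0%) at an adjusted p below 0.05, and the smallest adjusted p was 0.103. At an unadjusted p below 0.05 there were 712 genes (4.91%), of which 352 were higher (2.43%) and 360 lower (2.48%) at 2g. The 3 arrays at 2g all lay above the 3 incubator arrays for 285 genes (1.97%) and all below for 409 (2.82%). Within sets, 1642 genes (11.3%) were higher in all 3 sets and 2231 (15.4%) lower. The median change over all genes was -0.01. Without the pairing by set, limma again called 0 genes, and 285 had an unadjusted p below 0.05. The 712 became 1091 without set E2 1 and 420 without set E2 3, and centring each array on its median gave 332 higher and 205 lower.

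The bounds on the changes were narrow. The 95% interval of a typical gene reached 0.171 to either side of its estimate on the log2 scale (limma). It lay wholly within 0.5 of no change for 14293 genes (98.6%), so that for those genes a change as large as 0.5 lies outside the interval. Gja1 (probe set 10363173), the gene of the blocked channel, was bright throughout: 11.88, 11.85 and 11.38 in the incubator and 11.86, 11.77 and 11.41 at 2g in sets 1, 2 and 3. Its change was -0.02 ± 0.05 (standard error here and after every ±, unless marked otherwise), with a 95% interval of -0.12 to 0.08. The antibody binds protein, so this level checks no label.

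The 3 sets of the E2 arm had little in common in their changes. Across the 14489 genes, the 2g minus C difference of set 1 correlated with that of set 2 at r = 0.0634 and with that of set 3 at r = 0.0313, and sets 2 and 3 gave r = -0.000338. In the IgG arm, on other arrays, the same differences correlated at 0.573 between sets 1 and 2, 0.266 between 1 and 3, and 0.318 between 2 and 3. These values describe genes within arrays and carry no test, and each difference rests on 1 array a side. The IgG differences also varied with level. Their median over genes below the median level was 0.07, 0.08 and 0.01 in IgG sets 1, 2 and 3. Over genes at or above that level it was -0.05, -0.04 and -0.01. The part of this shift with level in the correlations was not tested. The SD of the difference was 0.131, 0.125 and 0.174 in sets E2 1, E2 2 and E2 3. The mean change of the E2 arm correlated with that of the IgG arm at r = -0.0474.

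**Figure D1:**
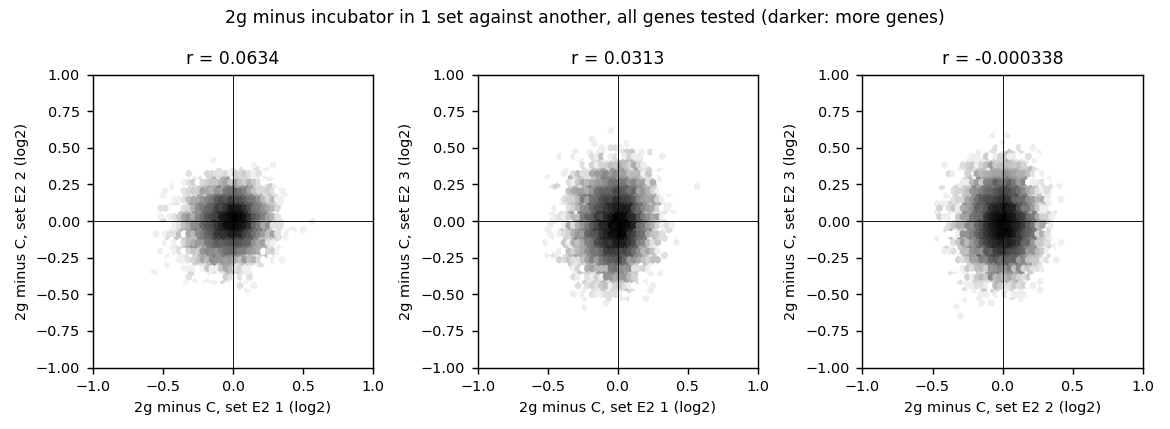
Change from incubator to 2g (log2) of every gene tested in 1 set of the E2 arm against another set, for the 3 pairs of sets. The clouds are round, with r of 0.0634, 0.0313 and -0.000338, and set E2 3 has the widest spread.

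Genes are named below by the smallest p among those with the same direction in all 3 sets, 8 in each direction, and none of the 16 was called over all genes. The smallest p belonged to Snora16a (10508719), a small nucleolar RNA of the kind that guides pseudouridylation of other RNAs. Its level was 10.52, 10.45 and 10.57 in the incubator and 10.82, 10.88 and 10.96 at 2g. The groups did not overlap and each set was higher at 2g. Its change was 0.37 ± 0.06 (1.29-fold, 95% interval 0.24 to 0.50, limma adjusted p = 0.103).

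Rny1 (10544523), a Y RNA, which is a small noncoding RNA bound by the Ro60 protein, had the largest change over all genes tested. It measured 9.51, 9.63 and 8.84 in the incubator and 10.07, 10.34 and 9.59 at 2g. Set 3 was dimmer on both sides, so the groups overlapped although every set was higher at 2g. The change was 0.67 ± 0.13 (1.59-fold, limma adjusted p = 0.204). When only the 6 arrays of this comparison were fitted, which leaves 2 residual degrees of freedom, limma called both RNAs (adjusted p = 0.00103 for Rny1 and 0.0441 for Snora16a). No other fit tried called a gene.

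The third gene was Ndufa9 (10548057), a subunit of mitochondrial complex I. It measured 10.87, 10.83 and 10.59 in the incubator and 11.03, 10.99 and 10.96 at 2g, with no overlap (0.23 ± 0.05, limma adjusted p = 0.333). The other 5 higher genes had a limma adjusted p of 0.847. They were Ahsa1 (10397518, 0.18 ± 0.04), an activator of the Hsp90 ATPase, Hexa (10585874, 0.19 ± 0.04), a subunit of a lysosomal hexosaminidase, Ppp1ca (10460376, 0.13 ± 0.03), a catalytic subunit of protein phosphatase 1, Cdk4 (10366814, 0.10 ± 0.02), the kinase partner of D cyclins, and the predicted gene Gm10561 (10346321, 0.38 ± 0.09). Cdk4 measured 13.14, 13.17 and 13.16 in the incubator against 13.24, 13.26 and 13.27 at 2g.

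The 8 lower genes also had a limma adjusted p of 0.847 each. Cirbp (10364712), a cold-inducible RNA-binding protein, measured 9.59, 9.48 and 9.02 in the incubator and 9.16, 9.28 and 8.89 at 2g. Every set was lower at 2g, and the groups overlapped because set 3 was dimmer (-0.25 ± 0.06). Grem1 (10485948), a secreted BMP antagonist, measured 12.75, 12.77 and 12.96 in the incubator and 12.69, 12.55 and 12.86 at 2g (-0.13 ± 0.03). Rad18 (10546834), a ubiquitin ligase of DNA damage tolerance, had a change of -0.20 ± 0.05 and no overlap. The others were Sestd1 (-0.28 ± 0.07), the ubiquitin ligase Znrf2 (-0.26 ± 0.07), the olfactory receptor gene Olfr810 (-0.43 ± 0.11), and the zinc finger genes Zfp784 (-0.30 ± 0.08) and Tshz1 (-0.29 ± 0.08). Olfr810 had the largest of these changes, at 8.85, 8.44 and 8.66 in the incubator and 8.29, 8.08 and 8.30 at 2g. Many named genes, higher or lower, differed alike from the same incubator arrays at 1g and ug. These changes were 0.37 and 0.37 for Rny1, 0.25 and 0.19 for Snora16a, and 0.15 and 0.15 for Ahsa1. They were -0.17 and -0.20 for Rad18 and -0.28 and -0.28 for Tshz1, but 0.02 and 0.04 for Cdk4. Only Sestd1 (0.01) and Olfr810 (0.10) had the other sign, both at ug.

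**Figure D2:**
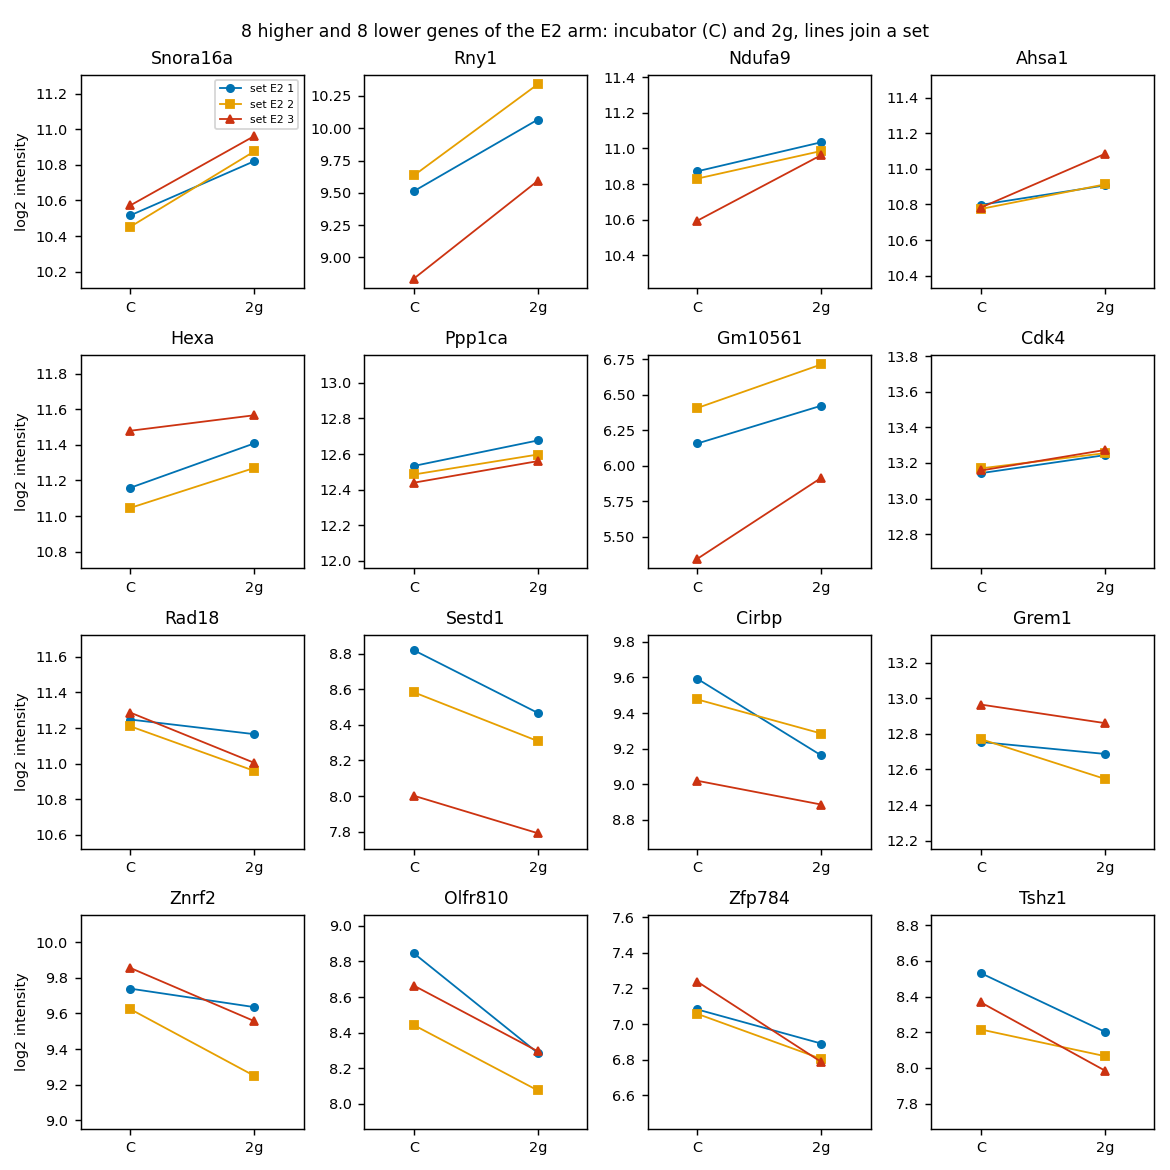
Log2 intensity of the 16 named genes in the incubator (C) and at 2g, E2 arm. Lines join the arrays of a set, and each panel has its own vertical scale. Each gene moved the same way in all 3 sets, and set E2 3 lay well below the others for Rny1, Gm10561 and Sestd1.

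The IgG arm measured the same 16 genes on other arrays. Its arrays entered the shared estimate of spread and the filter, and so had a part in the choice of genes, but not in the E2 difference itself. Of the 8 lower genes, 7 were also lower at 2g in the IgG arm, 6 of them in all 3 sets. Over all 14489 genes, 7217 were lower there, and of the 7245 at or above the median level 4629 were lower. How many of all genes were lower in all 3 IgG sets was not counted. Sestd1 differed by -0.36 ± 0.07 there, Cirbp by -0.35 ± 0.06, Olfr810 by -0.53 ± 0.11 and Rad18 by -0.19 ± 0.05, and Zfp784 was the exception (0.10 ± 0.08). Of the 8 higher genes, 2 were higher in the IgG arm (1 in all 3 sets) and 6 lower (3 in all 3 sets). Snora16a differed by -0.08 ± 0.06 there, Rny1 by -0.07 ± 0.13 and Ndufa9 by -0.13 ± 0.05. The tests of these differences between arms are given further on.

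Gene groups are described by the signs and sizes of their members, beside the same for all genes. Over all genes tested, 6318 were higher and 8171 lower at 2g. These counts differed by level. Among the 3623 brightest genes, 1953 were higher and 1670 lower, 205 were higher and 76 lower at an unadjusted p below 0.05, and the median change was 0.01. Over the 3623 dimmest genes the median change was -0.03. Most groups below are bright, with median levels of 10 to 12 against 8.41 over all genes, so the brightest genes are the nearer background.

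The unfolded protein response is the program that cells with a large secretory load use when proteins misfold in the endoplasmic reticulum (ER). The sensors Atf6, Ern1 and Eif2ak3 act through transcription factors on genes of chaperones, disulfide isomerases and the machinery that removes misfolded proteins. All 44 genes of this group were measured and passed the filter for low values. At 2g, 30 were higher and 14 lower, with a median of 0.04. At an unadjusted p below 0.05, 8 were higher and 0 lower, and limma called 0, the smallest adjusted p being 0.847. The median was 0.07 in set E2 1, -0.02 in E2 2 and 0.02 in E2 3, so the sets did not share a direction. Against the same incubator arrays the median was 0.03 at 1g and 0.0034 at ug. In the IgG arm, without the blocking antibody, 34 were higher and 10 lower at 2g, with a median of 0.05 that was positive in all 3 sets, and the median difference between arms was -0.0084.

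The members given here are all higher ones, while the changes of the 44 ran from -0.15 to 0.20. Among 13 chaperones and co-chaperones, 9 were higher. Hspa5 (10471586, BiP, the main Hsp70 of the ER) measured 12.83, 12.86 and 12.95 in the incubator and 12.93, 12.88 and 13.04 at 2g (0.07 ± 0.03). Calr (10580219), the lectin chaperone calreticulin, measured 12.77, 12.83 and 12.70 in the incubator and 12.94, 12.94 and 12.72 at 2g (0.10 ± 0.03). Both genes were higher at 2g in every set, and their groups overlapped. Dnajb11 (10434675), a partner of BiP, differed by 0.17 ± 0.06 and Creld2 (10426098) by 0.13 ± 0.05. Among 10 disulfide isomerases and oxidases, 7 were higher. Pdia3 (10475335), the isomerase that works with calreticulin, measured 11.74, 11.82 and 11.57 in the incubator and 11.87, 11.92 and 11.84 at 2g, without overlap (0.17 ± 0.05). Pdia6 (10394735) differed by 0.11 ± 0.04 and the ER peroxiredoxin Prdx4 (10607475) by 0.20 ± 0.07. Of the 11 genes of ER-associated degradation, 6 were higher, and Derl2 (10388033), part of the channel through which misfolded proteins leave, had the smallest p of the 44. It measured 9.86, 9.81 and 9.52 in the incubator and 10.06, 9.94 and 9.78 at 2g (0.20 ± 0.05, 1.15-fold, limma adjusted p = 0.847). Of the 10 sensors and transcription factors, 8 were higher and none reached an unadjusted p below 0.05, among them Xbp1 (0.10 ± 0.05), Atf4 (0.09 ± 0.06) and Ddit3 (0.10 ± 0.11).

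The promoters of these genes are known for the ER stress response element, whose letters are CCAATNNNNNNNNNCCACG. It was looked for on both strands in RefSeq promoter windows of build GRCm38.p6 (250 bases before to 50 after a start), which were held for 38 of the 44 genes. The letters occurred in 10 of the 42 windows of these genes (23.8%) and in 39 of all 32851 windows (0.119%). The sites are shown to let a reader compare them, read in the orientation of the element, with its fixed letters in capitals.
Hspa5 (chr2:34772025-34772043): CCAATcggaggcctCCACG
Hsp90b1 (chr10:86705638-86705656): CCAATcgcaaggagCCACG
Hsp90b1 (chr10:86705533-86705551): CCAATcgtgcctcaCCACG
Calr (chr8:84847075-84847093): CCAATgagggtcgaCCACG
Canx (chr11:50325800-50325818): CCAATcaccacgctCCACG
Dnajc3 (chr14:118937827-118937845): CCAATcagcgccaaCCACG
Creld2 (chr15:88819520-88819538): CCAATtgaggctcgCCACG
Pdia6 (chr12:17266491-17266509): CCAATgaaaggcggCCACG
Ero1b (chr13:12565682-12565700): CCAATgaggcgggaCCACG
Syvn1 (chr19:6046532-6046550): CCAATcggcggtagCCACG
Derl3 (chr10:75893242-75893260): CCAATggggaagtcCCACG
The site lies on the gene's own strand in Hspa5, Canx, Dnajc3, Pdia6 and Syvn1, on the opposite strand in Calr, Creld2, Ero1b and Derl3, and once on each in Hsp90b1. The 10 genes with a site had a median change of 0.05 at 2g (6 of 10 higher), and the 28 with a window but no site of 0.05 (20 of 28 higher). A match is a description of letters, and no match says only that they are not in this window.

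The surroundings of the element are shown for the 250 bases before the start of Hspa5, Hsp90b1 and Pdia6, in the direction of the gene. The whole element, on either strand, is in capitals.
Hspa5 (chr2:34771840-34772089, + strand): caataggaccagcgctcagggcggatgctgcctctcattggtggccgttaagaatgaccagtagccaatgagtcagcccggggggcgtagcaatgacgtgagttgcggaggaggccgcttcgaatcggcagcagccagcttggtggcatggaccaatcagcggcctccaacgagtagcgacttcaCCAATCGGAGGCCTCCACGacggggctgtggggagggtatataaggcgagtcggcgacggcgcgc
Hsp90b1 (chr10:86705445-86705694, - strand): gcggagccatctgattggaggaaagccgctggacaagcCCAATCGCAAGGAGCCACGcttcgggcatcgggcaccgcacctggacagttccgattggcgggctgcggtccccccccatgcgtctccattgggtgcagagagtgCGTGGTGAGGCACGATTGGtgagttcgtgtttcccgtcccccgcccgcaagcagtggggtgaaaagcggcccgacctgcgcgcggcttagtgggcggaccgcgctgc
Pdia6 (chr12:17266339-17266588, + strand): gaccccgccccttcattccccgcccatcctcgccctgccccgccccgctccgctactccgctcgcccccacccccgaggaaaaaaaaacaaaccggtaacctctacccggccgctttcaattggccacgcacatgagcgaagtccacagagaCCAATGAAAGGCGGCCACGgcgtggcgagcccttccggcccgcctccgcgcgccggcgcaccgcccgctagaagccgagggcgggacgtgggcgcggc
Of these 3 genes, Pdia6 differed by 0.11 ± 0.04, Hspa5 by 0.07 ± 0.03 and Hsp90b1, an ER-resident Hsp90, by 0.05 ± 0.06.

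**Figure D3:**
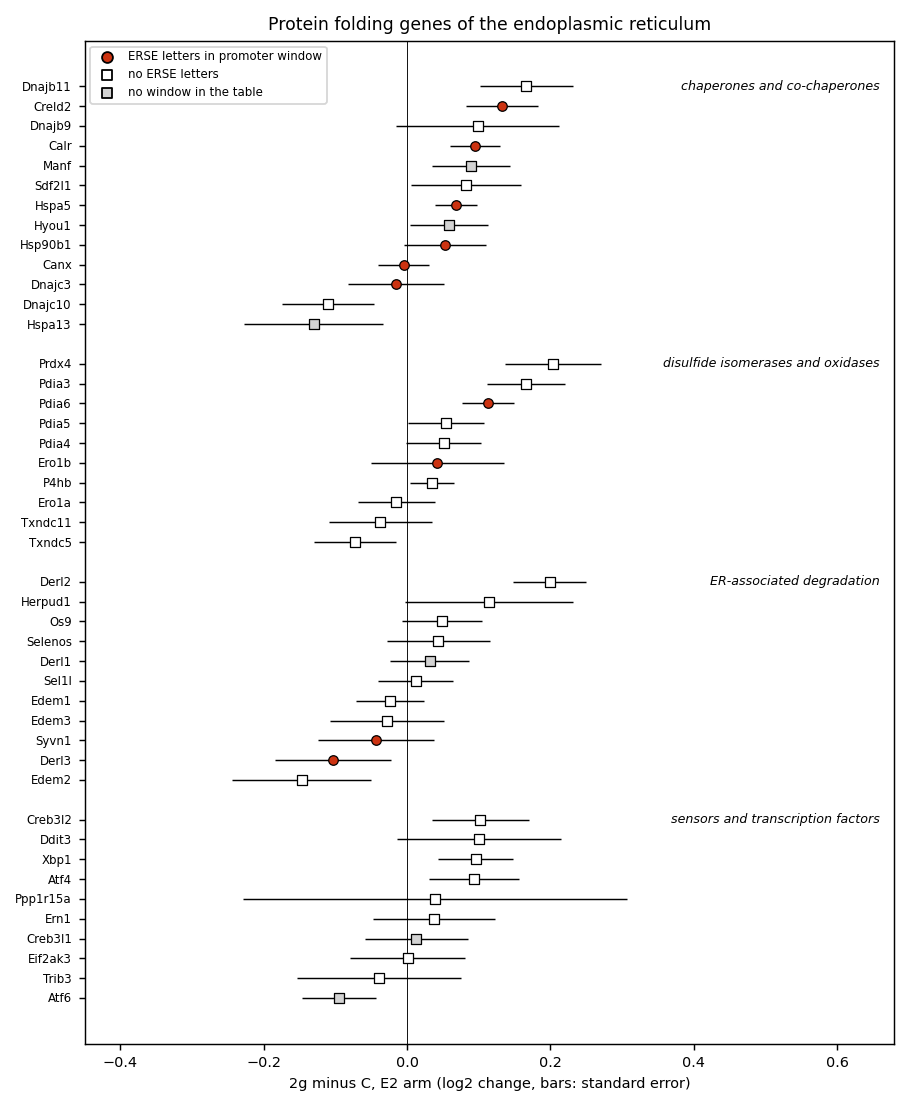
Change from incubator to 2g (log2 ± standard error) of the 44 genes of ER protein folding in the E2 arm, ordered within 4 roles. Filled circles have the element in a promoter window, open squares have a window without it and grey squares have no window in the table. Both kinds of genes lie on both sides of 0, between -0.15 and 0.20.

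The cytosolic heat shock proteins fold proteins outside the ER under the transcription factor Hsf1. Of the 22 genes, 19 were tested, with 16 higher and 3 lower at 2g (median 0.03). At an unadjusted p below 0.05, 4 were higher and 0 lower, and limma called 0. Hspe1 (10455588), the small partner of the mitochondrial chaperonin, measured 11.92, 12.05 and 12.11 in the incubator and 12.09, 12.22 and 12.51 at 2g. Each set was higher, with set 3 the most (0.25 ± 0.06, 1.19-fold). A second probe set of Hspe1 gave 0.21. Hspa8 (10528021), the constitutive Hsp70, differed by 0.09 ± 0.03 and its co-chaperone Dnaja1 (10521587) by 0.24 ± 0.08. The other probe set of Dnaja1 was lower in sets 1 and 2. The stress-inducible Hspa1a (0.06 ± 0.11), Hsph1 (0.01 ± 0.04) and Hspb1 (0.02 ± 0.06) had small changes relative to their errors. The list's median was 0.09, -0.0038 and 0.11 in sets 1, 2 and 3. Against the same incubator arrays the list's median was 0.02 at 1g and 0.05 at ug.

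Hspe1 and Hspd1, the large chaperonin subunit, lie head to head on chromosome 1 and share the stretch between them. The letters GAANNTTCNNGAA, a heat shock element of 3 inverted units, were looked for on either strand. They occurred in 5 of the 22 windows of the heat shock genes (22.7%), which belong to 4 of 16 genes. Of all 32851 windows, 198 held them (0.603%). In the shared stretch they occur at 2 overlapping places, in capitals here in the direction of Hspe1.
Hspe1 (chr1:55087898-55088147, + strand): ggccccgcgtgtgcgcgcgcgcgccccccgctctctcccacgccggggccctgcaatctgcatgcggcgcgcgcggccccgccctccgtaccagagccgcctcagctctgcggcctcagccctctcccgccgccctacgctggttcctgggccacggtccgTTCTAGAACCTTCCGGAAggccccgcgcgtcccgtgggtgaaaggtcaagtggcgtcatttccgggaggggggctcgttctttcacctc
Hspd1 measured 11.78, 11.86 and 12.22 in the incubator and 11.89, 11.74 and 12.27 at 2g. Its change of 0.01 ± 0.05 had a 95% interval of -0.09 to 0.11, and that of Hspe1 ran from 0.12 to 0.38. The difference between the 2 genes was not tested.

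Most genes of cytosolic ribosomal proteins, the protein part of the translating ribosome, were higher at 2g. Of 76 genes, 53 were tested, with 47 higher and 6 lower (median 0.05), 25 higher in all 3 sets and 2 lower in all 3. Among the 3623 brightest genes, 651 were higher in all 3 sets and 398 lower. The medians of the sets were 0.06, 0.03 and 0.07. The rise was not particular to 2g: against the same incubator arrays the median was 0.04 at 1g and 0.08 at ug. At an unadjusted p below 0.05, 13 were higher and 0 lower, and limma called 0. Examples are Rpl38 (10544812, 0.12 ± 0.03) and Rpl24 (10386187, 0.16 ± 0.05) of the large subunit and Rps6 (10604904, 0.07 ± 0.02) of the small one. The group is very bright (median level 12.30), and quantile normalization left 34 of 53 higher with a median of 0.02. Many ribosomal protein genes have near-identical pseudogene copies, and the array holds several probe sets for most, so single values may mix copies. In the IgG arm 17 were higher and 36 lower at 2g (median -0.02), close to the 3623 brightest genes of that arm, with 1372 higher and 2251 lower (median -0.02).

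The nuclear genes of oxidative phosphorylation had similar counts. Of 75, 72 were tested, with 57 higher and 15 lower at 2g (median 0.03), and 10 higher against 0 lower at an unadjusted p below 0.05. In complex I, which takes electrons from NADH, 29 of 35 were higher, led by Ndufa9. Of the 9 genes of complex III, 4 were higher, among them Uqcr11 (10370833, 0.09 ± 0.04) and Uqcrh (10515253, 0.14 ± 0.06). In complex IV 8 of 9 were higher, such as Cox5b (10408044, 0.11 ± 0.05). Of 15 genes of ATP synthase 13 were higher, such as Atp5c1 (10479996, 0.12 ± 0.05). The set medians were 0.03, -0.01 and 0.08, so set 2 did not share the direction. Against the same incubator arrays the list's median was 0.05 at 1g and 0.07 at ug, so the rise was not particular to 2g. Quantile normalization left 43 of 72 higher with a median of 0.01. In the IgG arm 22 were higher and 50 lower (median -0.02), again near the median of -0.02 of the brightest genes there.

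Groups of protein turnover and redox control leaned the same way, with medians of 0.02 to 0.05. The proteasome, which degrades ubiquitin-tagged proteins, had 20 of 31 higher (median 0.02, or -0.01 after quantile normalization), with Psmd8 (10561679, 0.10 ± 0.04) of the regulatory particle at the smallest p. Of 27 genes of autophagy and lysosomes, 22 were higher (median 0.04). They include Hexa and Gabarapl2 (10528546, 0.11 ± 0.03), an Atg8-like protein whose other, dim probe set disagreed in set 3, while Atg16l1 (10348277), which directs Atg8 lipidation, was lower (-0.14 ± 0.06). Of 22 targets of NRF2, the regulator of antioxidant genes, 14 were higher (median 0.05), led by thioredoxin Txn1 (10513195, 0.10 ± 0.03) and the ferritin chains Fth1 (10461402, 0.07 ± 0.03) and Ftl1 (10447591, 0.07 ± 0.03). None of these genes was called. Against the same incubator arrays, the medians at 1g and ug were 0.04 and 0.04 for the proteasome. They were 0.06 and 0.06 for autophagy and lysosomes, and -0.0029 and 0.04 for NRF2 targets. Quantile normalization left 14 of 31 proteasome genes higher, 18 of 27 of autophagy and lysosomes (median 0.01) and 12 of 22 NRF2 targets (median 0.02). In the IgG arm 5 proteasome genes were higher and 26 lower at 2g (median -0.07). There, NRF2 targets had 5 higher and 17 lower (median -0.04), and autophagy and lysosomes 16 higher and 11 lower (median 0.01). The brightest genes of that arm had a median of -0.02.

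Genes of the bone matrix gave a mixed picture. Of 35 genes tested, 20 were higher and 15 lower (median 0.03, or -0.0010 after quantile normalization), with 4 higher and 1 lower at an unadjusted p below 0.05. P4ha1 (10363350), a prolyl hydroxylase that stabilizes collagen, differed by 0.23 ± 0.07 and its relative P4ha2 (10376074) by 0.13 ± 0.06. Fibronectin, Fn1 (10355403), differed by 0.08 ± 0.03. The metalloproteinase inhibitors went different ways, with Timp1 (10598976) at 0.09 ± 0.04 and Timp3 (10365482) at -0.22 ± 0.07. Of 13 collagens, 7 were higher and 6 lower, none with an unadjusted p below 0.05. Among the hypoxia and glycolysis genes, Hk1 (10414661) differed by 0.14 ± 0.04, Vegfa (10451198) by -0.15 ± 0.06 and Adm (10556297) by -0.16 ± 0.07, and 15 of 23 were higher (median 0.01).

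The genes closest to the hemichannel's own work lay on both sides of 0. Among 24 genes of connexins, pannexins and of ATP and prostaglandin signalling, 11 were higher and 13 lower (median -0.02, or 0.0033 with each array centred). The prostaglandin E receptor gene Ptger1 (10573210) was the only one with an unadjusted p below 0.05 (-0.17 ± 0.08). The ATP receptor P2ry1 differed by -0.18 ± 0.10 and the channels Panx2 by -0.19 ± 0.12 and Panx1 by -0.08 ± 0.07. Of 25 genes of mechanosensing and focal adhesion, 11 were higher and 14 lower (median -0.0026, or 0.02 with each array centred), with 0 at an unadjusted p below 0.05 in either direction. Of the 25 genes of Wnt, BMP and TGF-beta signalling, 7 were higher and 18 lower (median -0.04). With each array centred, 10 were higher (median -0.02). This list's median level was 8.48, near the 8.41 of all genes, of which 6318 were higher and 8171 lower. In it, Grem1 alone had an unadjusted p below 0.05. Tgfb1 (0.11 ± 0.05) and the activin subunit Inhba (-0.16 ± 0.09) followed it. Of 9 osteocyte markers tested, 3 were higher and 6 lower (median -0.06, or -0.04 with each array centred). The osteoclast regulator Tnfsf11 (RANKL) differed by -0.12 ± 0.17 and Dkk1, a Wnt inhibitor, by -0.12 ± 0.10.

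**Figure D4:**
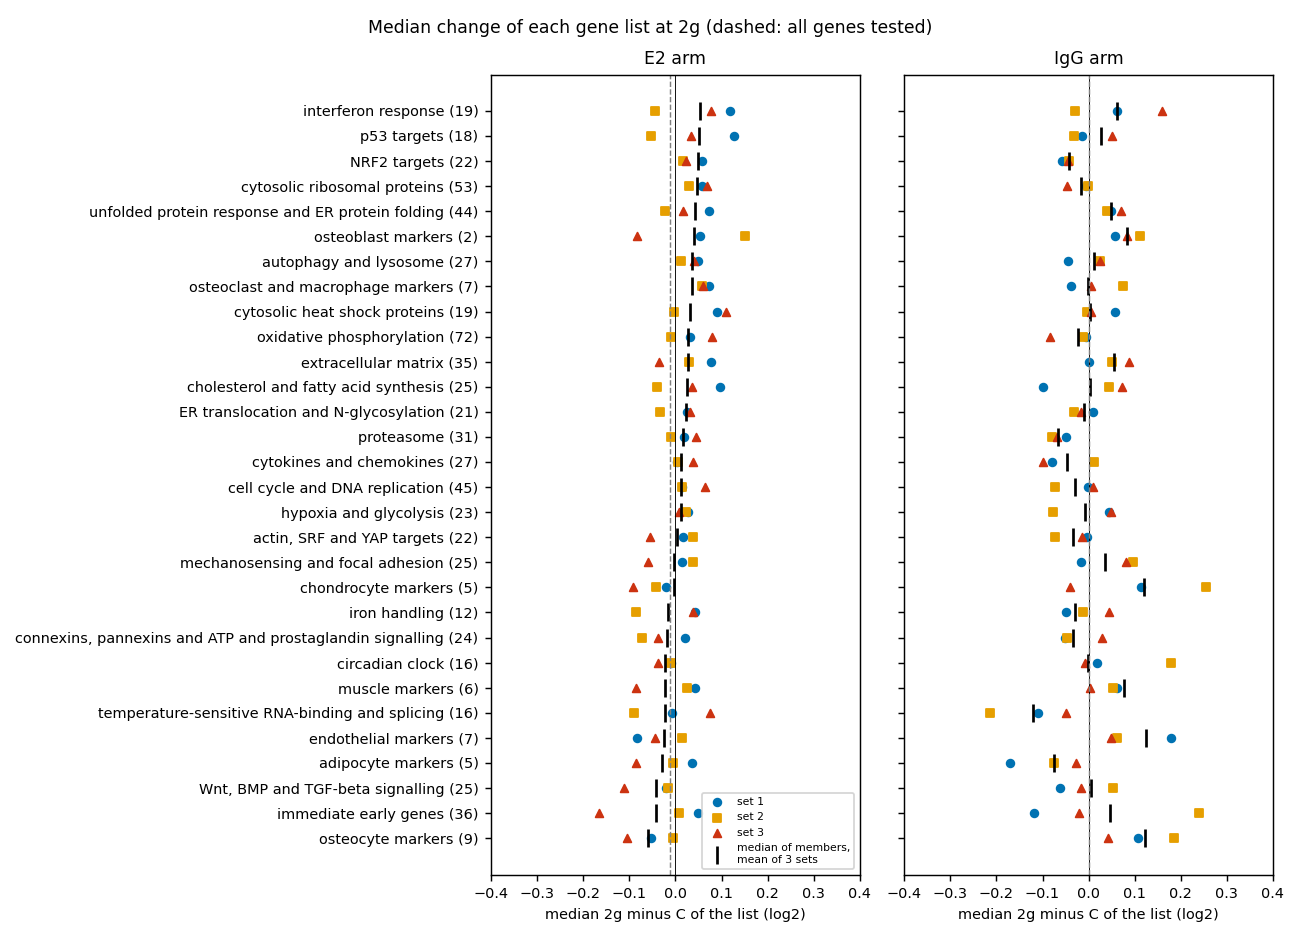
Median change from incubator to 2g (log2) of each of 30 gene lists in each set (coloured symbols) and in the mean of the sets (black bar), E2 arm left and IgG arm right, with the number of genes tested in brackets and the median of all genes dashed. In the E2 arm the bars lie between -0.06 and 0.05, and the sets of most lists fall on both sides of 0.

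Immediate early genes, the first to answer a growth signal or mechanical load without new protein synthesis, lay on both sides of their incubator level at 2g. Of 36 genes, 13 were higher and 23 lower (median -0.04), with 0 at an unadjusted p below 0.05 in either direction. The set medians were 0.05, 0.01 and -0.17. Fos measured 6.92, 7.34 and 7.49 in the incubator and 7.30, 7.13 and 7.07 at 2g. Egr1 measured 9.24, 9.66 and 9.82 in the incubator and 9.34, 9.67 and 9.003 at 2g. Only set 3 was clearly lower for Egr1. Klf2 (-0.16 ± 0.08), Jun (0.08 ± 0.04), Klf4 (0.14 ± 0.10) and Ccn2 (-0.10 ± 0.08) had the smallest p-values of the list. Of 27 cytokine and chemokine genes, 15 were higher and 12 lower (median 0.01). The 17 cytokines and NF-kappaB feedback genes had 5 higher and 12 lower (median -0.04). The chemokines, which attract immune cells, were higher in 10 of 10 genes, by 0.01 to 0.10 (7 of 10 after quantile normalization), none with an unadjusted p below 0.05. Only 1 of these 10 was higher in all 3 sets. The chemokine median was 0.04 at 2g, 0.03 at 1g and 0.06 at ug.

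More small nucleolar RNAs were higher than lower at 2g. They guide the methylation and pseudouridylation of ribosomal and spliceosomal RNA, and most lie in introns of other genes. Of 47 tested, 31 were higher and 16 lower at 2g (median 0.05), 18 were higher in all 3 sets and 1 was lower in all 3. At an unadjusted p below 0.05, 7 were higher and 1 lower, and limma called 0. Snora31 (10416503) measured 8.43, 8.13 and 8.20 in the incubator and 8.86, 8.90 and 8.62 at 2g, without overlap (0.54 ± 0.20). Snord47 (10351043, 0.46 ± 0.13), Snord87 (10353034, 0.36 ± 0.11), Snord82 (10356333, 0.29 ± 0.09) and Snord14e (10584580, 0.25 ± 0.09) were higher in all 3 sets. The exception below an unadjusted p of 0.05 was Snord16a (10586168, -0.21 ± 0.10). Of the 7245 genes at or above the median level, 1066 were higher in all 3 sets and 917 lower. The set medians of the small nucleolar RNAs were 0.04, 0.16 and 0.01. Against the same incubator arrays their median was 0.05 at 1g and 0.15 at ug, so the rise was not particular to 2g. In the IgG arm 10 of the 47 were higher and 37 lower (median -0.07), and the median difference between arms was 0.16. All 7245 genes at or above the median level had 2616 higher and 4629 lower in the IgG arm (median -0.03) and a median difference between arms of 0.03. For comparison, 13767 protein-coding genes had a median of -0.01 in the E2 arm, 388 long noncoding RNAs of -0.05 and 104 miRNA genes of -0.05.

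**Figure D5:**
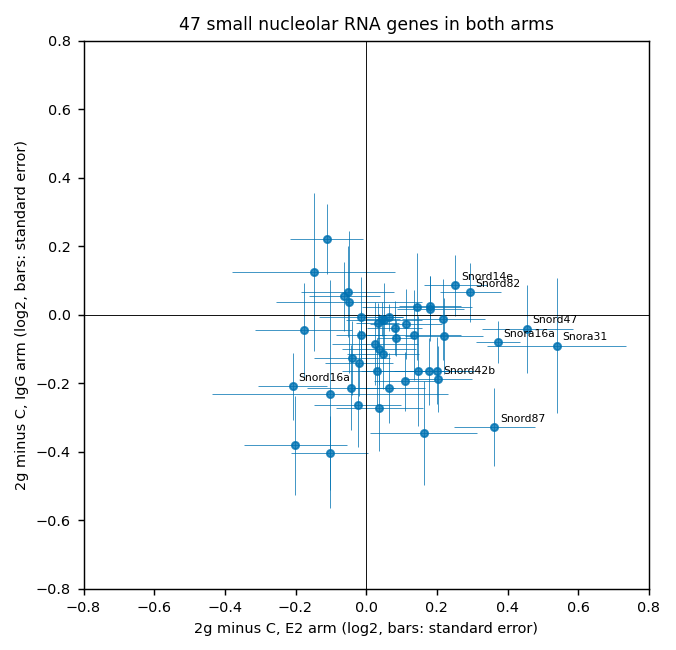
Change from incubator to 2g (log2 ± standard error) of 47 small nucleolar RNA genes in the E2 arm (horizontal) and the IgG arm (vertical). Most points lie right of 0 (31 of 47) and below 0 (37 of 47). The labelled genes have an unadjusted p below 0.05 in the E2 arm.

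Whether 2g acted differently with and without blocked hemichannels was tested as the difference between the arms' 2g minus C changes. Again limma called 0 genes higher (0%) and 0 lower (0%), with a smallest adjusted p of 0.255. At an unadjusted p below 0.05, 922 genes (6.36%) were higher and 766 (5.29%) lower in the E2 arm than in the IgG arm. The counts depended on 1 set of each arm, falling from 1688 in all to 637 without set IgG 2 and to 958 without set E2 3. Centring each array on its median, which moved the median difference over all genes from -0.01 to 0.07, gave 1531 higher and 361 lower, and quantile normalization gave 615 and 950.

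Ndufa9 had the smallest p of that test. It was higher at 2g by 0.16, 0.16 and 0.37 in the E2 sets and lower by values of -0.18, -0.17 and -0.05 in the IgG sets, a difference of 0.36 ± 0.06 (limma adjusted p = 0.255). The next genes had a limma adjusted p of 0.314. Snora16a differed between arms by 0.45 ± 0.09, Gm10561 by 0.65 ± 0.13, the small nucleolar RNA host gene Snhg16 by 0.49 ± 0.10 and the zinc finger gene Zfp458 by 0.63 ± 0.14. In the other direction the difference was -0.49 ± 0.10 for Vsig8, -0.56 ± 0.13 for the olfactory receptor gene Olfr401, -0.49 ± 0.11 for the pseudogene Cyp4f41-ps, -0.51 ± 0.12 for the growth factor gene Fgf4 and -0.52 ± 0.12 for the miRNA gene Mir338. Every E2 set lay on 1 side of every IgG set for these 10 genes, which is how they were chosen.

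Mir338 measured 7.34, 7.48 and 7.62 in the incubator and 7.24, 7.22 and 7.13 at 2g in the E2 arm, without overlap. Its 2g minus C change was 0.21, 0.36 and 0.11 in the IgG sets. Its level is close to the middle of the array, and the probe set reads the gene and not a mature form. The mature forms in RefSeq (GRCm38.p6) are shown with the seed, bases 2 to 8, in capitals.
miR-338-5p (chr11:120014816-120014837, - strand): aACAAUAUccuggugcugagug
miR-338-3p (chr11:120014781-120014802, - strand): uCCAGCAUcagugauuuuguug
Across all 104 miRNA genes, 33 were higher and 71 lower at 2g in the E2 arm, against 79 higher and 25 lower in the IgG arm. These genes are dim (median level 6.73), and all 7244 genes below the median level leaned likewise, with 2711 higher and 4533 lower in the E2 arm and 4656 higher and 2588 lower in the IgG arm.

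The last comparison asked how 2g differed from the other positions of the magnet, the mean of 1g and ug, within the E2 arm. It uses no incubator array. Limma called 0 genes higher (0%) and 0 lower (0%), the smallest adjusted p was 0.51, and 693 genes (4.78%) were higher and 379 (2.62%) lower at an unadjusted p below 0.05. Quantile normalization turned that balance to 537 higher and 753 lower, and centring to 232 and 635. Without set E2 1 the 1072 genes became 2104. The named genes had a limma adjusted p of 0.51. Higher at 2g were Hspe1 (0.24 ± 0.05), Atp5md (0.19 ± 0.04), a small subunit of ATP synthase, Saa3 (0.10 ± 0.02), an acute-phase protein, the pseudogene Anp32-ps (0.54 ± 0.11) and E430018J23Rik (0.44 ± 0.10). Lower were Sestd1 (-0.26 ± 0.06), the transcription factor gene Cebpb (-0.26 ± 0.06), the mitochondrial nuclease gene Endog (-0.24 ± 0.06), the kinase gene Pim3 (-0.38 ± 0.10) and 4930581F22Rik (-0.40 ± 0.10). Relative to the incubator, Cebpb differed by -0.03 at 2g, 0.10 at 1g and 0.35 at ug. For 4930581F22Rik these values were -0.02, 0.41 and 0.36, so both genes lay near their incubator level at 2g. All genes named for this comparison, and not only Hspe1 and Sestd1, had the same sign at 2g against the incubator. Both comparisons share the 2g arrays, so this agreement carries no separate information.

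The largest group difference of that comparison was in the immediate early genes. Of the 36, 16 were lower at 2g and 0 higher at an unadjusted p below 0.05, beside 2.62% of all genes lower, and the median was -0.21. The following genes were chosen after their values were seen. Fosb, an AP-1 subunit, measured 7.99, 7.73 and 7.51 at 2g, 8.47, 7.68 and 7.27 at 1g, and 9.04, 9.69 and 8.96 at ug. Atf3, a stress-inducible factor, measured 7.998, 7.87 and 7.97 at 2g, 8.35, 7.64 and 7.85 at 1g, and 8.93, 10.07 and 9.12 at ug. The ug arrays lay above all others, and the 2g arrays lay among those of 1g and the incubator. Relative to the incubator, the list's median was 0.15, 0.00 and -0.19 at 1g, 0.05, 0.01 and -0.17 at 2g, and 0.33, 0.60 and 0.22 at ug in sets 1, 2 and 3. For Egr1 the difference of 2g from the mean of 1g and ug was -0.56 ± 0.20, with a limma adjusted p of 0.61. It rested on the ug arrays (10.24, 11.02 and 10.09), since 1g arrays measured 9.34, 9.80 and 8.92.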

How the data were processed

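Total RNA of MLO-Y4 cells was measured on 24 arrays, 3 in each of 8 groups read from the titles and source names. The authors deposited log2 intensities, as their range shows, with array medians of 6.48 to 6.65. MAS5 was used, per the submitters' processing notes; its role and the scaling between arrays are not given in the sources used here. RNA was extracted with Trizol, per the labels' protocols. Of 35556 probe sets, 21789 had 1 gene symbol in the platform table, 1621 several and 12146 were not listed, and 21698 matched RefSeq. A probe set was kept where 3 or more arrays had it at or above their 40th percentile, and the brightest of a gene was used (14489 genes). The filter reads all groups, so a gene may pass through 1 group alone.

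Genes were tested two-sided with limma 3.58.1 in R 4.3.3 on all 24 arrays, with 8 group means, the set (arm and title number) as a fixed block and a variance trend (12 residual degrees of freedom, prior 8.29), and Benjamini-Hochberg adjustment over all genes at a threshold of 0.05. The pairing comes from the titles' numbers and was checked on the values: same-numbered arrays of the E2 arm correlated at 0.195 to 0.812 (18 pairs, deviations from group means), and 11 of 12 arrays had their best partner in their own set. Numbers 1 and 2 also correlated with each other (0.0230 to 0.482), so the check rests mostly on number 3, and no label says what a number marks. The median 95% interval and all adjusted p-values come from this fit. The code was tested on simulated data.

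Up to 8 genes a direction were named by the smallest p among those with the same sign in 3 of 3 sets. For the other comparisons it was 5, with every E2 set on 1 side of every IgG set for the difference between arms. Gja1 was always given. The members shown of a list were mostly those with the smallest p, and their number differed between lists. A few more members, such as Fos, Egr1, Hspd1, Hsp90b1, Hspa1a, Xbp1 and the collagens' count, were picked with their values known. The 30 gene lists (730 of 796 entries on the array), their roles and the members of the comparison were chosen with earlier results of these data known. Alternatives were no block, a random block, fewer arrays in the fit, quantile normalization, centring on the array median, no filter, the mean of a gene's probe sets, no variance trend, and leaving out each set. Promoter windows and miRNAs are RefSeq's (GRCm38.p6); coordinates apply to these only, since the array's build is not given in the sources used here.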

Additional observations from a re-analysis of the deposited data

How the results depend on the processing

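Under every alternative limma called 0 genes between 2g and the incubator, with 1 exception: fitting only the arrays of the groups compared called 2, Rny1 and Snora16a. Leaving out 1 set at a time gave 0 to 0 called genes in each comparison. The number of genes with an unadjusted p below 0.05, 712 with all sets, was 1091 without set 1, 756 without set 2 and 420 without set 3 of the E2 arm, and for 2g against 1g and ug it was 1072, against 2104 without set 1 and 719 without set 3. Without the replicate block it was 285 for 2g against the incubator, 866 for the difference between arms and 434 for 2g against 1g and ug, with 0 called each time; the pairing changed no call. Centring each array gave 332 higher and 205 lower genes at that p, and quantile normalization 341 and 464. The change of Gja1 turned from negative to 0.00225 after centring and ran from -0.0471 to 0.00983 when 1 E2 set was left out (0.00983 without set 2). Of 464 alternative values of named genes, 2 reversed (both Gja1). Of 360 alternative values of list medians, 29 changed sign, among them 7 lists under quantile normalization and 5 under centring. Probe sets with no symbol or several gave 0 called of 6855, and 1 (lower) when the filter on dim probe sets was left out. With 3 sets, changes under about 0.171 on the log2 scale were within the 95% interval of a typical gene.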

Other observations

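Probe sets with no gene symbol or several (6855) were tested apart, adjusted among themselves. Limma called 0 between 2g and the incubator in the E2 arm (smallest adjusted p = 0.179), while 710 (10.4%) had an unadjusted p below 0.05, 482 higher and 228 lower at 2g, beside 4.91% of the named genes. What these probe sets measure is not given in the tables used here.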
